A study of Mus musculus with 4 samples.

Results

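The 93 genes described here encode the potassium channel pore subunits and their auxiliary subunits in the mouse brain. They were taken from the 32285 genes of the count tables by symbol, as every gene whose name is Kcn followed by a family letter and a number, auxiliary families such as Kcnab, Kcnip, Kcnmb and Kcne included. The 6 symbols left out were the antisense and overlapping transcripts Kcnab3os, Kcnd3os, Kcnmb4os1, Kcnmb4os2 and Kcnq1ot1, and Kcnrg, which is a regulator and no channel. Visium spatial transcriptomics, in which a tissue section lies on a slide of barcoded spots that capture polyadenylated RNA, was run on 10 µm brain sections of 4 samples. The study compared Slco1c1-iCreERT2;Pdcd10fl/fl mice (knockout, 2 libraries) with Pdcd10fl/fl littermates without the recombinase (control, 2 libraries). Mice of both groups carried the floxed alleles and were given 4-hydroxytamoxifen (50 µg, postnatal day 1), and sections were taken at postnatal day 65. The Slco1c1 promoter drives the inducible Cre recombinase in brain endothelium and is also known to be active in choroid plexus epithelium, where some channels of the epithelial list are made. Where recombination took place was not measured here. Pdcd10, also called CCM3, is a gene whose loss in endothelium causes cerebral cavernous malformations, clusters of enlarged and leaky capillaries.

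The labels do not agree on oxygen. The sample titles and the design text name normoxia for all 4 samples, the treatment field gives hypoxia for the knockouts and normoxia for the controls, and the protocol text, the same for every sample, describes 2 days at 12% oxygen. If the treatment field is right, oxygen and genotype cannot be told apart. The labels do not say that the libraries came from separate animals, so a p-value here reflects how far these 4 libraries vary, and that variation may be technical.

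Neurons use potassium channels to set the resting potential, to end action potentials and to limit repetitive firing. Astrocytes use inwardly rectifying channels to take up the potassium that firing neurons release, and pericytes and smooth muscle use ATP-sensitive and other potassium channels to set vessel tone. Voltage-gated pore subunits (Kcna, Kcnb, Kcnc, Kcnd, Kcnq, Kcnh) assemble as tetramers. The Kcnf, Kcng, Kcns and Kcnv proteins form no channel alone and modify Kcnb channels, while Kcnab, Kcnip, Kcnmb and Kcne proteins are auxiliary subunits. The Kcnj family holds the inward rectifiers and the Kcnk family the tandem-pore leak channels.

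UMI counts, which count captured RNA molecules, were summed in each library over spots with at least 1000 UMIs. The kept spots numbered 2931 and 4096 in the controls against 4599 and 4472 in the knockouts, the deposited total was between 50148764 and 74467027 UMIs per library, and the median UMIs of a kept spot came to 15326, 16226.5, 8158 and 13164.5 in control 1, control 2, knockout 1 and knockout 2. All 4 libraries list the same 4992 slide barcodes, which belong to the slide layout. A spot covers several cells, and in such sums fewer cells of a type and less RNA per cell cannot be told apart. None of the 10 neuron, 10 astrocyte and 10 oligodendrocyte markers was at 0 in all libraries. The same held for the pituitary and choroid plexus lists, so at this depth it does not tell which tissue the sections held. The section content was unequal. Oligodendrocyte markers summed to 8381 and 12181 CPM (UMIs per 1000000 of the library size after TMM scaling) in the controls against 4923 and 3460 CPM in the knockouts, reactive astrocyte markers to 121 and 142 CPM against 1326 and 1245 CPM, and pituitary markers to 220 and 89.0 CPM against 6.79 and 6.72 CPM. Of the 8 choroid plexus markers 3 fell and 1 rose, and their sum of 132 and 55.3 CPM against 15.5 and 16.3 CPM was mostly Ttr in the controls (120 and 42.4 CPM against 0.501 and 0.598 CPM), while the other 7 summed to 12.5 and 12.9 CPM against 15.0 and 15.7 CPM. The marker that rose was F5, from 0.287 and 0.244 CPM to 3.17 and 2.64 CPM. Neuron markers summed to 8264 and 7600 CPM in the controls against 7999 and 8248 CPM in the knockouts, which overlap. Pdcd10 itself is read from the transcript end, and the labels do not say which part was deleted, so its level does not check the labels: it was 90.9 and 82.3 CPM in the controls against 80.3 and 83.0 CPM in the knockouts, and the groups overlapped.

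Over whole sections, 82 of the 93 channel genes had enough counts to be tested. Of these, 13 rose and 28 fell in the knockouts at an adjusted p below 0.05 (edgeR quasi-likelihood test, Benjamini-Hochberg over all 17546 genes tested), and 41 did not pass. Of all genes tested, 20.1% rose and 18.3% fell. Without knockout 1, 7 members rose and 24 fell. With every spot thinned to 1000 UMIs, which leaves fewer counts and gives each spot equal weight, 6 rose and 17 fell. Among the genes described below Kcnb2, Kcns2, Kcna4, Kcnd3, Kcnt1, Kcnt2, Kcnk4, Kcnj16, Kcnk1, Kcnk13, Kcnj8 and Kcne4 lost their call (edgeR adjusted p from 0.0616 for Kcnt1 to 0.807 for Kcnk13). The log2 change also shrank for these genes, except for Kcna4, Kcnd3 and Kcne4, where it was larger. It went from -0.58 to -0.25 for Kcnb2, from -0.75 to -0.33 for Kcnt2 and from -0.67 to -0.11 for Kcnk13. The median log2 change was -0.13 over the tested channel genes and -0.00082 over all genes. Both knockouts lay above both controls for 23 of the 82 and below both for 41, while the same held for 36.6% and 35.9% of all genes tested. The share of all kept UMIs that fell on channel genes was nearly level, at 28.6 and 29.0 UMIs per 10000 in the controls against 29.1 and 28.6 in the knockouts. The 11 genes not tested (Kcna3, Kcna7, Kcna10, Kcne1, Kcnj1, Kcnj15, Kcnk15, Kcnk16, Kcnk18, Kcnmb3 and Kcnv2) had few UMIs, and Kcna7 and Kcnk18 had none in any library. The members were read through role lists, 54 genes as neuronal, 3 as glial, 4 as immune, 6 as mural or endothelial and 6 as epithelial, with 20 in no list.

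**Figure D1:**
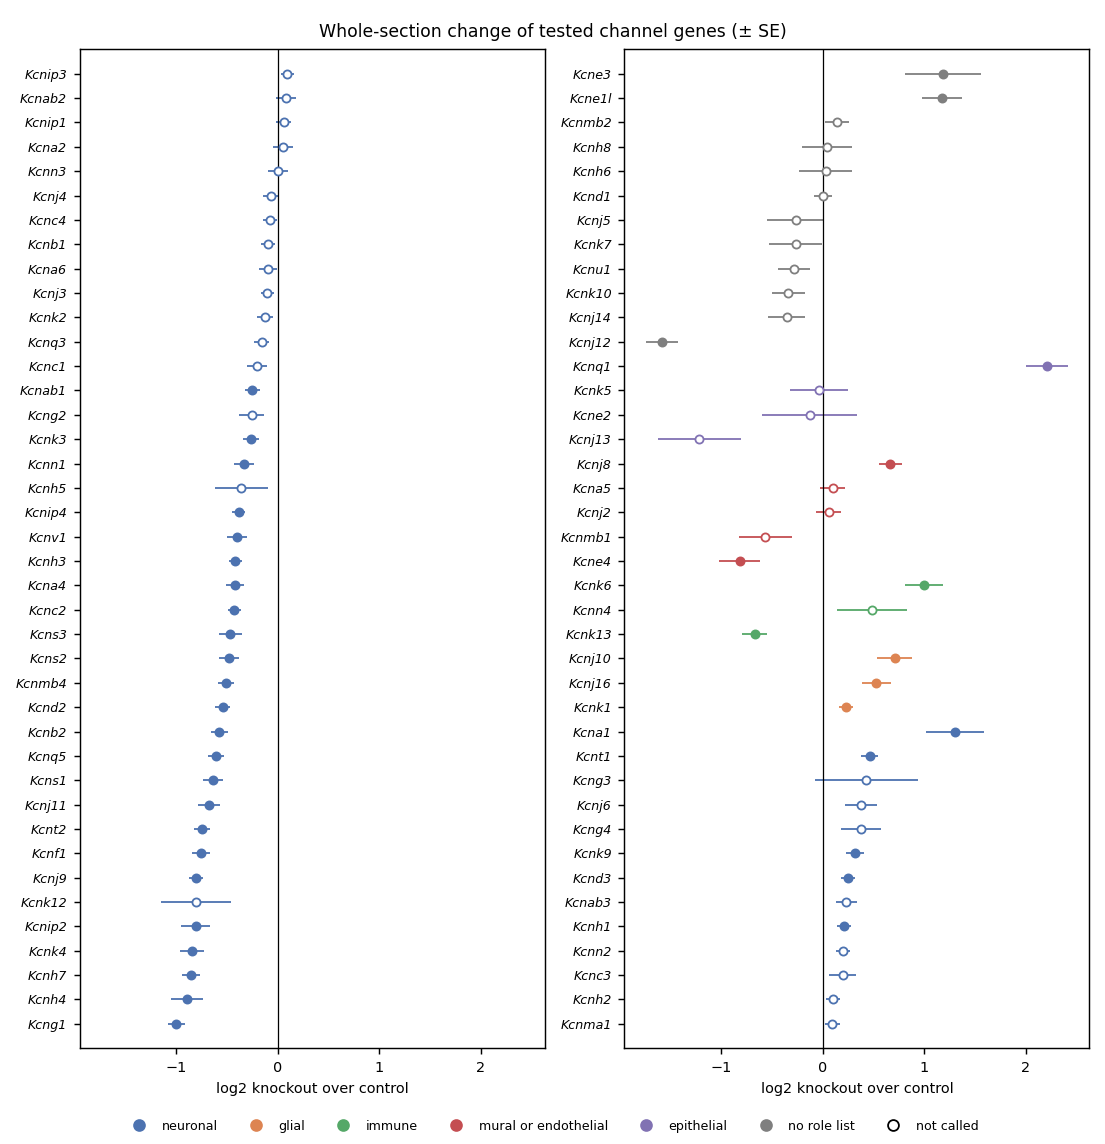
Log2 change of knockout over control for the tested channel genes over whole sections (a few are not drawn), with the standard error as a bar, ordered by role list; filled points passed the adjusted p of 0.05 and open points did not. Of the neuronal points 24 are filled on the lower side and 5 on the higher side, and the 3 glial points are all filled on the higher side. Of all genes tested, 20.1% rose and 18.3% fell.

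The neuronal channels, which made up 54 of the 82 tested members, carried 24 of the 28 lower calls. Over all genes tested, 18.3% fell and 20.1% rose. Of the 54 neuronal genes, all of which were tested, 24 fell, 5 rose and 25 did not pass, with a median log2 change of -0.23. Their summed level was 2584 and 2631 CPM in the controls against 2361 and 2311 CPM in the knockouts, so the groups did not overlap. The neuron marker list, summed above, did overlap between the groups, and 2 of its 10 genes fell and none rose. Excitatory neuron markers (3 of 6 fell, 1 rose) summed to 2828 and 2648 CPM against 2294 and 2419 CPM, and inhibitory neuron markers (2 of 7 fell, none rose) to 1447 and 1308 CPM against 1172 and 1149 CPM. The fall of each sum came from the most abundant gene of its list: without Nrgn the other 5 excitatory markers summed to 1111 and 1116 CPM against 1277 and 1285 CPM, higher in the knockouts, and without Sst the other 6 inhibitory markers summed to 769 and 759 CPM against 799 and 749 CPM, which overlap. The part of these cell classes in the result was not tested.

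Among the silent modifier subunits, genes fell and none rose. Of the 10 Kcnf, Kcng, Kcns and Kcnv genes, 9 were tested and 6 fell, with a median log2 change of -0.47, and their summed level was 233 and 218 CPM in the controls against 143 and 150 CPM in the knockouts. Over all genes tested, 18.3% fell, and this list is small. Kcng1 (ENSMUSG00000074575, chromosome 2, 168260117 to 168281533 on GRCm38.p6), a partner of Kcnb channels, measured 41.8 and 37.6 CPM in the controls against 19.1 and 20.6 CPM in the knockouts. Its level was lower in both knockouts, at 0.5 times the control level, with a log2 change of -1.0 (SE 0.082, edgeR adjusted p = 0.000195), and it kept its call in all 14 alternative settings, between -1.08 and -0.88. Kcnf1 (ENSMUSG00000051726, chromosome 12, 17172100 to 17176888), a modifier of the same Kcnb channels, measured 97.0 and 85.6 CPM against 56.2 and 51.8 CPM. The groups were apart, and the log2 change was -0.76 (SE 0.0851, edgeR adjusted p = 0.000748). Kcns1 went from 15.0 and 14.2 CPM to 8.74 and 10.0 CPM (log2 -0.64), and Kcns2 from 13.7 and 14.4 CPM to 9.48 and 10.6 CPM (log2 -0.48), and both fell. Kcnb2, a pore subunit these proteins modify, fell from 18.7 and 19.97 CPM to 13.1 and 12.9 CPM (log2 -0.58, SE 0.0805, edgeR adjusted p = 0.00188).

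**Figure D2:**
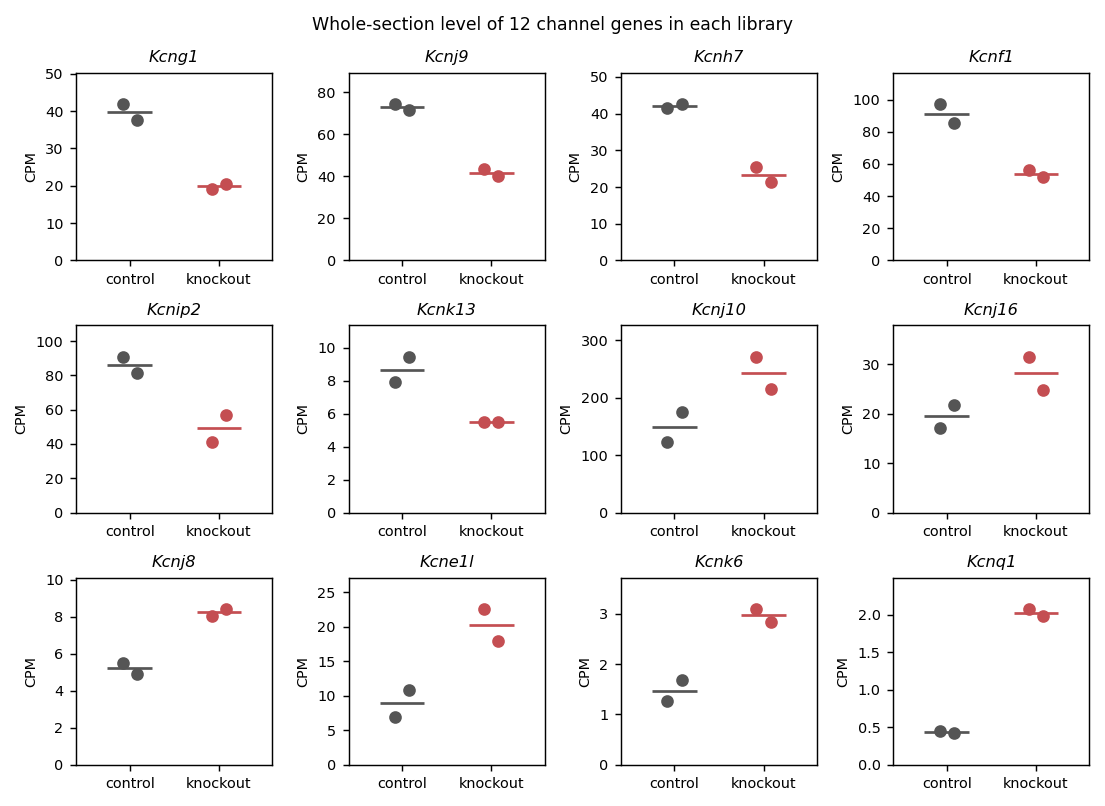
Level in CPM of 12 channel genes over whole sections, with a point for each of the 2 control and 2 knockout libraries and a line at the mean of each group; the axes start at 0. The 12 genes were picked from those that passed the test. In each panel the control and knockout points do not overlap, with Kcng1, Kcnj9, Kcnh7, Kcnf1, Kcnip2 and Kcnk13 lower and the other 6 higher in the knockouts. Of all genes tested, 36.6% had both knockouts above both controls and 35.9% below.

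Among the channels that oppose firing near threshold, several A-type current genes were lower. Kcnd2 encodes the pore of the fast-inactivating dendritic A-type current, and Kcnip2 and Kcnip4 encode the calcium-binding KChIP proteins that attach to it. Kcnd2 measured 82.6 and 87.2 CPM in the controls against 60.6 and 55.8 CPM in the knockouts (log2 -0.55, SE 0.0737, edgeR adjusted p = 0.00165). Kcnip2 measured 91.0 and 81.5 CPM against 41.2 and 56.9 CPM (log2 -0.81, SE 0.144, edgeR adjusted p = 0.00491), and Kcnip4 85.0 and 87.5 CPM against 66.9 and 65.01 CPM (log2 -0.39, SE 0.0652, edgeR adjusted p = 0.00397). All 3 were lower in each knockout than in each control. Kcna4, a Shaker-family A-type subunit, fell from 16.1 and 14.8 CPM to 11.2 and 11.7 CPM (log2 -0.43). Of the 3 Kcnd genes 1 fell and 1 rose, and of the 4 Kcnip genes 2 fell and none rose. The gene that rose was Kcnd3, singled out after its values were seen, at 59.7 and 59.9 CPM against 68.6 and 73.5 CPM (log2 0.25). That call was also lost with sums matched for the region content of the libraries (equal region content, log2 0.10, edgeR adjusted p = 0.393). The same held with the replicate number as a block (log2 0.25, edgeR adjusted p = 0.0622). Leaving out knockout 1 (log2 0.30) or knockout 2 (log2 0.20) lost the call of Kcnd3 as well. Its antisense transcript Kcnd3os rose as well, from 2.03 and 1.74 CPM to 3.10 and 2.79 CPM, and since the sources used here do not state whether strand was used in counting, reads of such a pair cannot be told apart.

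Kcnj9 and Kcnj11, inward rectifiers of neurons, were lower in the knockouts. Kcnj9 (ENSMUSG00000038026, chromosome 1, 172320508 to 172329322) encodes a G protein-gated inward rectifier that opens when inhibitory receptors are activated. It measured 74.2 and 71.4 CPM in the controls against 43.4 and 39.9 CPM in the knockouts, a log2 change of -0.81 (SE 0.0719, edgeR adjusted p = 0.000279), and no setting lost the call. Its partner subunits Kcnj3 (85.0 and 86.0 against 80.0 and 79.1 CPM, log2 -0.10) and Kcnj6 (1.84 and 2.05 against 2.58 and 2.51 CPM, log2 0.38), both singled out after their values were seen, did not pass the test. Kcnj11, the pore of the neuronal ATP-sensitive channel, fell from 16.8 and 19.7 CPM to 12.0 and 10.9 CPM (log2 -0.68, SE 0.106, edgeR adjusted p = 0.0029). Abcc8, the sulfonylurea receptor that completes this channel, fell from 17.6 and 18.4 CPM to 11.1 and 11.2 CPM (log2 -0.69). Kcnj12, an inward rectifier singled out after its values were seen because it had the largest fall of the tested members, went from 5.53 and 4.98 CPM to 1.93 and 1.59 CPM (log2 -1.59, SE 0.157, edgeR adjusted p = 0.000445).

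The remaining neuronal families were mixed in direction. Among the ether-à-go-go family, 3 of 8 Kcnh genes fell and 1 rose. Kcnh7, which encodes a slowly closing channel of this family, measured 41.7 and 42.5 CPM against 25.3 and 21.3 CPM (log2 -0.85, SE 0.0912, edgeR adjusted p = 0.000605), and Kcnh3 53.2 and 51.7 CPM against 38.5 and 40.0 CPM (log2 -0.42). Kcnq5, a subunit of the M-current that damps repetitive firing, fell from 38.6 and 40.0 CPM to 24.0 and 27.4 CPM (log2 -0.61, SE 0.0813, edgeR adjusted p = 0.00155). Among the 4 Kcnc genes, whose channels allow fast spiking, Kcnc2 fell from 91.8 and 91.4 CPM to 66.6 and 69.4 CPM (log2 -0.43), and Kcnc1 at 122 and 139 against 121 and 105 CPM did not pass (log2 -0.21, edgeR adjusted p = 0.129). Neither Kcna2 (105 and 121 against 126 and 109 CPM) nor its cytoplasmic beta subunit Kcnab2 (126 and 151 against 152 and 141 CPM) passed, and in both genes the groups overlapped.

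Among the channels gated by calcium or sodium, and their beta subunits, the sodium-activated pair moved in opposite directions. Kcnt1 (ENSMUSG00000058740, chromosome 2, 25863791 to 25918273) rose from 45.3 and 40.7 CPM to 56.1 and 62.4 CPM (log2 0.46, SE 0.0847, edgeR adjusted p = 0.00564), and its paralog Kcnt2 fell from 16.9 and 16.9 CPM to 9.91 and 10.2 CPM (log2 -0.75, SE 0.0814, edgeR adjusted p = 0.000654). Neither gene's groups overlapped. Kcnmb4, the neuronal beta subunit of the large-conductance calcium-activated channel, fell from 64.2 and 57.5 CPM to 42.4 and 43.0 CPM (log2 -0.51, SE 0.0755, edgeR adjusted p = 0.00237), as did its antisense transcript Kcnmb4os2, from 5.998 and 4.996 CPM to 3.04 and 3.79 CPM. The pore gene Kcnma1, singled out after its values were seen, measured 74.8 and 83.0 CPM against 84.8 and 83.6 CPM and did not pass. Kcnk4, a mechanosensitive leak channel, fell from 10.4 and 8.84 CPM to 5.34 and 5.30 CPM (log2 -0.85, SE 0.117, edgeR adjusted p = 0.00181). Among neuronal genes that rose, Kcna1, an axonal subunit singled out after its values were seen, went from 2.85 and 4.72 CPM to 11.7 and 7.26 CPM (log2 1.30, SE 0.283, edgeR adjusted p = 0.0107), with both knockouts above both controls.

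The glial channels rose together: all 3 genes of the list passed on the higher side, with a median log2 change of 0.53 and a summed level of 241 and 301 CPM in the controls against 427 and 357 CPM in the knockouts. Over all genes tested, 20.1% rose, and this list is small. Kcnj10 (ENSMUSG00000044708, chromosome 1, 172341210 to 172374085) encodes the main potassium-buffering rectifier of astrocytes, which oligodendrocytes also make. It measured 122 and 175 CPM in the controls against 271 and 215 CPM in the knockouts, a log2 change of 0.71 (SE 0.176, edgeR adjusted p = 0.0176). Both knockouts were above both controls, and the call was lost with DESeq2 (adjusted p = 0.0705) and in no other setting. Kcnj16 (ENSMUSG00000051497, chromosome 11, 110968033 to 111027968), which assembles with Kcnj10, measured 17.1 and 21.8 CPM against 31.5 and 24.8 CPM (log2 0.53, SE 0.146, edgeR adjusted p = 0.0265), and without knockout 1 the edgeR adjusted p was 0.0592. Kcnk1 (ENSMUSG00000033998), a leak channel, measured 102 and 104 CPM against 124 and 117 CPM (log2 0.23, SE 0.0688, edgeR adjusted p = 0.0373). Its call was lost with DESeq2 (adjusted p = 0.0529) and with the replicate number as a block (edgeR adjusted p = 0.093). It was also lost without control 1 (log2 0.21), without knockout 1 (log2 0.18) and without knockout 2 (log2 0.26). The general astrocyte markers, of which 3 of 10 rose and 1 fell, overlapped between groups at 2826 and 3590 CPM in the controls against 3867 and 3195 CPM in the knockouts. Without Slc1a2, the most abundant of them, the other 9 summed to 1802.6 and 2247.6 CPM against 2690.7 and 2249.0 CPM. In that sum knockout 2 was nearly level with control 2. All 6 reactive astrocyte markers rose, and the oligodendrocyte markers, all 10 of which fell, moved against Kcnj10. Their part in the glial result was not tested.

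Kcnj9 and Kcnj10 are neighbours on chromosome 1, transcribed away from each other, and they moved in opposite directions. Their promoters are shown for that reason, from 250 bases before to 50 bases after each RefSeq start (GRCm38.p6), with 11387 bases between the windows. Capitals mark TATAAA or its reverse complement in the Kcnj9 window and GGGCGG, the core of GC boxes, or its reverse complement in the Kcnj10 window.
Kcnj9, chr1:172329273-172329572, minus strand: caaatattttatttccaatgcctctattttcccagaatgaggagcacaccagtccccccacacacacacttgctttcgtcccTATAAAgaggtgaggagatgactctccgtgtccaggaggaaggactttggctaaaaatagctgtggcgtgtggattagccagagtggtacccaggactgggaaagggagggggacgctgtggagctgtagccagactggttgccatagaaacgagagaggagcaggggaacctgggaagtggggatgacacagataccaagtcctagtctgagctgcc
Kcnj10, chr1:172340960-172341259, plus strand: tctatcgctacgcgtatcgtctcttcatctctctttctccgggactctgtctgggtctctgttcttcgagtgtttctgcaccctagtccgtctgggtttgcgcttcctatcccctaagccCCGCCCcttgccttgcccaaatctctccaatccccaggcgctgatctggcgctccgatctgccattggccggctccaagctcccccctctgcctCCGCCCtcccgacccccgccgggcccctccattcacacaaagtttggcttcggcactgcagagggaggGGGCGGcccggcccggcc
The Kcnj9 window held 1 TATAAA match and no GGGCGG match at a GC content of 52.3%, and the Kcnj10 window held 3 GGGCGG matches and no TATAAA match at 63.7%. With both strands searched, TATAAA occurred in 13.6% of the 32851 RefSeq promoter windows of that length and GGGCGG in 35.7%. Promoter entries were found for 68 of the 93 channel genes, whose 93 windows held TATAAA in 5 cases (5.38%) and GGGCGG in 45 (48.4%). A match is a description of the letters and not a binding site.

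Of the 4 immune channels, 3 were tested, 1 rose and 1 fell. Kcnk6 (ENSMUSG00000046410, chromosome 7, 29221928 to 29232522), a tandem-pore channel of myeloid cells, measured 1.27 and 1.68 CPM in the controls against 3.10 and 2.83 CPM in the knockouts (log2 1.00, SE 0.186, edgeR adjusted p = 0.00606). Kcnk13 (ENSMUSG00000045404, chromosome 12, 99963149 to 100062682), a tandem-pore channel of microglia, went the other way, from 7.90 and 9.47 CPM to 5.47 and 5.48 CPM (log2 -0.67, SE 0.122, edgeR adjusted p = 0.00562). Both genes had groups that did not overlap. Kcnn4, a calcium-activated channel of immune cells, measured 0.246 and 0.212 CPM against 0.278 and 0.351 CPM and did not pass (edgeR adjusted p = 0.302), and Kcna3, a T cell and microglial channel, had between 0.0205 and 0.111 CPM and was not tested. Microglia markers, of which 6 of 11 rose and 2 fell, summed to 458 and 531 CPM in the controls against 784 and 742 CPM in the knockouts. Among them P2ry12 and Tmem119 fell, by 1.73 and 0.66 on the log2 scale, and all 10 oligodendrocyte markers fell as well. Kcnk13 was higher in oligodendrocyte-rich spots than in other spots by a log2 difference of 1.26. The part of these markers in the Kcnk6 and Kcnk13 results was not tested.

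The vascular channels, those of mural or endothelial cells, were divided in direction. Kcnj8 (ENSMUSG00000030247, chromosome 6, 142564837 to 142571614), the pore of the ATP-sensitive channel of pericytes and smooth muscle, measured 5.51 and 4.91 CPM in the controls against 8.05 and 8.43 CPM in the knockouts (log2 0.67, SE 0.112, edgeR adjusted p = 0.00405). Abcc9, the regulatory subunit that completes this channel, rose with it, from 4.42 and 6.33 CPM to 11.2 and 9.23 CPM (log2 0.91, SE 0.179, edgeR adjusted p = 0.00732). The neuronal pair Kcnj11 and Abcc8 fell and the vascular pair Kcnj8 and Abcc9 rose, each in both knockouts. Kcne4, an auxiliary subunit of smooth muscle, fell from 3.07 and 3.47 CPM to 2.21 and 1.55 CPM (log2 -0.82, SE 0.202, edgeR adjusted p = 0.0173), but without knockout 2 the edgeR adjusted p was 0.0674 and with equal region content 0.273. Kcnj2 (5.26 and 6.25 against 5.88 and 6.12 CPM), Kcna5 (4.05 and 3.91 against 4.25 and 4.28 CPM) and Kcnmb1 (0.696 and 0.944 against 0.575 and 0.546 CPM), which set tone in arteries, did not pass. Mural markers summed to 179 and 208 CPM in the controls against 235 and 228 CPM in the knockouts, with 4 of 12 higher and none lower, and endothelial markers to 172 and 180 CPM against 395 and 363 CPM, with 9 of 11 higher. Their part in the Kcnj8 result was not tested.

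The epithelial list holds channels of choroid plexus and other transport epithelia, and 4 of its 6 genes were tested. Kcnq1 (ENSMUSG00000009545, chromosome 7, 143106877 to 143427050), a slow delayed rectifier, was near the detection limit in the controls, with 22 and 26 UMIs or 0.45 and 0.423 CPM, and had 112 and 152 UMIs or 2.08 and 1.98 CPM in the knockouts. The log2 change of 2.21 (SE 0.209, edgeR adjusted p = 0.000362) was the largest rise among the tested members. The antisense transcript Kcnq1ot1, which lies within Kcnq1, rose from 7.31 and 10.1 CPM to 15.0 and 14.6 CPM, and which of the pair gave the Kcnq1 reads cannot be told apart without the strand. Kcnj13, which choroid plexus epithelium makes, measured 0.696 and 1.02 CPM in the controls against 0.204 and 0.507 CPM in the knockouts and did not pass (log2 -1.22, SE 0.408, edgeR adjusted p = 0.0506). It passed in 8 of 13 alternative settings, among them equal region content (log2 -3.10, edgeR adjusted p = 0.000787), and leaving out 1 library moved its log2 change from -0.78 without knockout 1 to -2.08 without knockout 2 (edgeR adjusted p = 0.137 and 0.00266). The choroid plexus markers apart from Ttr, given above, summed higher in the knockouts, and among them only F5 rose. Folr1 and Sostdc1 fell, by 1.34 and 1.06 on the log2 scale. The part of these markers in the Kcnj13 result was not tested. Kcne2 (0.287 and 0.228 against 0.130 and 0.312 CPM) and Kcnk5 (0.430 and 0.586 against 0.538 and 0.468 CPM) overlapped between groups, and Kcne1 and Kcnj1 had at most 0.0488 CPM. Among members in no list, Kcne1l (ENSMUSG00000090122, chromosome X, 142304753 to 142306198), an auxiliary subunit of the KCNE family, rose from 6.98 and 10.8 CPM to 22.6 and 17.9 CPM (log2 1.18, SE 0.199, edgeR adjusted p = 0.00405).

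Genes that work beside potassium channels were read from a list of 40, of which 38 were tested, 3 rose and 11 fell. Of all genes tested over whole sections, 20.1% rose and 18.3% fell, and the lists below are small. Among the HCN pacemaker channels, Hcn2 fell from 122 and 139 CPM to 81.0 and 63.5 CPM (log2 -0.86, SE 0.122, edgeR adjusted p = 0.00208) and Hcn3 fell by 0.38 on the log2 scale. Of the 5 cation-chloride cotransporters, Slc12a5, which keeps neuronal chloride low, fell from 356 and 387 CPM to 299 and 281 CPM (log2 -0.36), and Slc12a2, which loads chloride, fell by 0.50 on the log2 scale. Of the 13 tested auxiliary and anchoring proteins, Lrrc55, a gamma subunit of the large-conductance calcium-activated channel, fell from 11.2 and 11.3 CPM to 5.95 and 5.93 CPM (log2 -0.92, SE 0.0943, edgeR adjusted p = 0.000509), and Dpp10, an auxiliary subunit of Kcnd channels, fell by 0.25 on the log2 scale. Of the 8 voltage-gated sodium channel genes, Scn2a, Scn2b and Scn3b fell, by 0.37, 0.43 and 0.55 on the log2 scale, and Scn1a and Scn3a rose, by 0.55 and 0.20. Scn2a and Scn3a lie outside the rule for named genes and were singled out after their values were seen.

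To see with which cells each channel gene lay in the tissue, the 10% of spots richest in the markers of a cell class were compared with the other spots of the same library, among spots with at least 5000 UMIs, with library as a block. Marker-rich spots hold more of a class and still hold other cells, and the marker lists contain no channel gene. In neuron-rich spots 16 of 79 tested members were higher and 6 lower (9.07% and 12.8% of all genes). The higher members were neuronal genes such as Kcnf1, at 137, 107, 91.1 and 78.5 CPM in the neuron-rich spots of control 1, control 2, knockout 1 and knockout 2 against 91.2, 83.2, 50.3 and 47.5 CPM in the other spots (log2 0.63, edgeR adjusted p = 0.00199), and Kcnh3 (log2 0.58). The lower members included Kcnj10 (log2 -0.65), Kcnj16 (log2 -0.38), Kcnj8 (log2 -0.52) and Kcne1l (log2 -1.06). All 16 higher members came from the neuronal list.

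In astrocyte-rich spots 14 of 80 members were higher and 27 lower (20.9% and 20.3% of all genes). Kcnj10 measured 280, 357, 545 and 481 CPM in the astrocyte-rich spots of control 1, control 2, knockout 1 and knockout 2 against 111, 158, 245 and 191 CPM in the other spots. That is 2.37-fold higher (log2 1.25, SE 0.0506, edgeR adjusted p = 5.26e-14), with a ratio between 2.23 and 2.53 in each library. Kcne1l was higher by a log2 difference of 1.5, Kcnj16 by 0.76 and Kcnk1 by 0.40, and Kcnf1 (log2 -1.53) and Kcnh3 (log2 -1.39) were lower. In oligodendrocyte-rich spots 17 of 79 were higher and 31 lower (18.3% and 20% of all genes). Kcnj10 was higher there too (log2 1.17), and so was Kcnk13 of the immune list (log2 1.26, SE 0.172, edgeR adjusted p = 0.000128), at 22.9 and 21.9 CPM in the oligodendrocyte-rich control spots against 7.92 and 10.6 CPM in the knockout ones. Kcna2, a subunit of axons beside the nodes of Ranvier, was higher by 0.28. The astrocyte-rich and oligodendrocyte-rich spots overlapped in between 12.9% and 27.4% of spots, so these contrasts are not separate.

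In microglia-rich spots 6 of 80 members were higher and 14 lower (14.1% and 9.03% of all genes). Kcnk6 had the smallest adjusted p of those that were higher, at 2.33, 3.32, 8.90 and 8.79 CPM in the microglia-rich spots of control 1, control 2, knockout 1 and knockout 2 against 1.15, 1.501, 2.49 and 2.20 CPM in the other spots (log2 1.62, SE 0.239, edgeR adjusted p = 0.000961). Kcnk13 was higher by a log2 difference of 0.73. In endothelial-rich spots 7 of 80 were higher and 15 lower (14.7% and 9.71% of all genes), and in mural-rich spots 10 of 80 were higher and 19 lower (17.8% and 13.7% of all genes). Kcnj8 measured 10.5, 8.85, 22.7 and 23.6 CPM in mural-rich spots against 5.25, 4.52, 6.72 and 7.16 CPM in the other spots (log2 1.43, SE 0.167, edgeR adjusted p = 9.7e-05). Kcnmb1, the smooth muscle beta subunit of the large-conductance channel, was higher in mural-rich spots by a log2 difference of 1.93 and Kcne4 by 1.32, while Kcna5 (log2 0.34) and Kcnj2 (log2 0.20) did not pass. Kcnq1, placed in the epithelial list, was higher in endothelial-rich spots by 1.35 and in mural-rich spots by 1.03. Kcnj13 was higher in mural-rich spots by 3.97. Without knockout 2, 11 members were called in endothelial-rich and 13 in microglia-rich spots, and without control 2, 12 in microglia-rich spots. Mural-rich and endothelial-rich spots shared between 30.8% and 41.2% of spots.

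**Figure D3:**
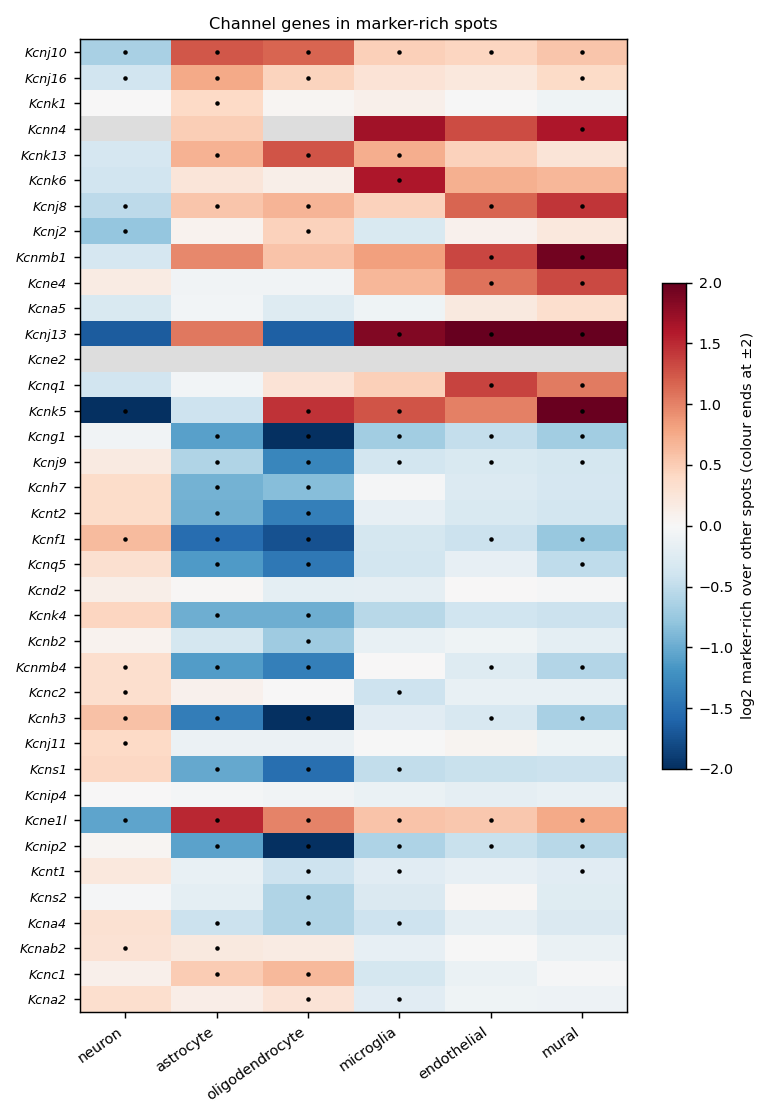
Colour gives the log2 difference of marker-rich over other spots for the named channel genes (rows) in 6 marker lists (columns), with a dot where the adjusted p was below 0.05, and grey where the gene was not tested; the colour scale ends at 2 on either side. Kcnj10, Kcnj16, Kcnk1 and Kcne1l are red in the astrocyte column, Kcnj8, Kcnmb1 and Kcne4 in the mural column, and most neuronal genes are blue in the astrocyte and oligodendrocyte columns.

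Whether the knockout change itself differed between marker-rich and other spots was tested as an interaction. For the neuron list 22 of 79 members passed, 6 with a higher and 16 with a lower change in the neuron-rich spots (11.8% of all genes passed in either direction). Kcnq5 measured 65.3 and 65.3 CPM in the neuron-rich spots of the controls and 22.0 and 20.4 CPM in those of the knockouts, against 34.99 and 36.1 CPM and 23.3 and 28.9 CPM in the other spots. The change was -1.62 in the neuron-rich and -0.45 in the other spots, a difference of -1.20 on the log2 scale (SE 0.12, edgeR adjusted p = 6.01e-06). Kcnh7 (difference -0.94) and Kcnd2 (difference -0.75) had a like pattern, so that for these 3 genes the excess of neuron-rich over other spots seen in both controls was not there in either knockout. Kcng1 differed the other way, with a change of -0.50 in the neuron-rich and -1.07 in the other spots. Without control 1, 13 members passed for this list. Oligodendrocyte-rich spots made up 0% of the neuron-rich spots in both controls and 5.42% and 4.90% in the knockouts. Each class is the top 10% of its library. The share of list UMIs in oligodendrocyte-rich spots was 3.95% and 4.69% in the controls against 1.92% and 1.68% in the knockouts. The overlap therefore does not show whether the neuron-rich spots changed in content, and its part in the interaction was not tested.

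For the astrocyte list 5 members passed the interaction (2.27% of all genes), for the oligodendrocyte list 12 (7.21% of all genes) and for the microglia list 20 (6.52% of all genes). In microglia-rich spots Kcnc1 went from 143 and 134 CPM in the controls to 66.1 and 61.3 CPM in the knockouts, while the other spots held 120, 137, 127 and 108 CPM (difference in log2 change -0.97, edgeR adjusted p = 1.71e-05). Kcnmb4 went from 42.5 and 42.5 CPM to 57.2 and 59.5 CPM in the microglia-rich spots, with a log2 change of 0.46 there and -0.56 in the other spots (difference 1.00, edgeR adjusted p = 2.89e-05). Kcnk6 and Kcnk13, both of the immune list, did not pass the interaction for the microglia list (edgeR adjusted p = 0.29 for Kcnk6). Without knockout 1 or without knockout 2 this list had 9 or 8 members that passed, and the astrocyte list 3 in each case. For the endothelial and the mural lists no member passed by edgeR (0.298% and 0.292% of all genes did), with 9 and 5 members at an unadjusted p below 0.05. For Kcnj8 the change was 1.25 in mural-rich and 0.50 in other spots, and that difference did not pass (0.75, SE 0.269, edgeR adjusted p = 0.569).

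To compare like tissue, each spot with at least 5000 UMIs was assigned to the highest scoring of 8 region marker lists, and knockout and control were compared within each list. The share of spots assigned to white matter was 34.98% and 38.1% in the controls against 16.5% and 14.7% in the knockouts, the share for striatum 5.21% and 3.87% against 13.4% and 11.4%, and the share for midbrain and hindbrain 2.96% and 2.50% against 11.8% and 9.49%. Oligodendrocyte genes are part of the white matter list and themselves differed between the groups, so spots under one list name need not be the same tissue. In cortex 13 of 72 tested members rose and 29 fell (20.1% and 19.7% of all genes), in hippocampus 9 of 70 rose and 15 fell (15.6% and 13.9%), in striatum 10 of 66 rose and 18 fell (13% and 12%) and in thalamus 11 of 66 rose and 23 fell (10.4% and 10.8%). In hypothalamus 9 of 69 rose and 4 fell (6.09% and 5.37%), in midbrain and hindbrain 10 of 62 rose and 5 fell (5.76% and 6.97%), in cerebellum 5 of 62 rose and 6 fell (4.5% and 3.94%), and in white matter 19 of 73 rose and 20 fell (16.9% and 16.5%). In cortex, hippocampus, striatum and thalamus more members fell than rose, whereas in hypothalamus and in midbrain and hindbrain more rose than fell. In cerebellum (6 fell, 5 rose) and white matter (20 fell, 19 rose) the counts were nearly equal. The difference between lists was not tested. Leaving out control 1 left 6 members called in midbrain and hindbrain, control 2 left 22 in thalamus and 5 in cerebellum, knockout 1 left 7 in hypothalamus and 4 in cerebellum, and knockout 2 left 2 in cerebellum.

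Kcng1 fell in 7 of the 8 region lists. In cortex it measured 42.0 and 39.8 CPM in the controls against 20.9 and 20.04 CPM in the knockouts (log2 -1.0), in white matter 15.3 and 15.4 against 5.26 and 5.26 CPM (log2 -1.55), and in cerebellum 32.2 and 36.0 against 16.6 and 14.1 CPM (log2 -1.18). The groups were apart in each of these, and the exception was midbrain and hindbrain, at 9.55 and 25.2 against 12.6 and 17.4 CPM, where the groups overlapped (log2 -0.23, edgeR adjusted p = 0.715). Kcnj9, Kcnf1 and Kcnip2 each fell in 6 lists, and none of them rose in any. Kcnt1 rose in 7 lists, for example from 27.7 and 29.5 CPM to 45.2 and 45.3 CPM in hippocampus (log2 0.66, SE 0.102, edgeR adjusted p = 0.000842), and in white matter it did not pass (log2 0.22, edgeR adjusted p = 0.0893). Kcnt2 fell in 5 lists and rose in none, so the opposite movement of the sodium-activated pair was present within lists.

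Kcnj10 and Kcne1l rose in most lists. Kcnj10 rose in 6, most in striatum, from 40.3 and 84.1 CPM to 199 and 187 CPM (log2 1.68, SE 0.197, edgeR adjusted p = 2.7e-05), and in cortex, from 46.8 and 70.9 CPM to 173 and 143 CPM (log2 1.42, SE 0.159, edgeR adjusted p = 5e-05). In white matter it rose by 0.73, from 241 and 282 CPM to 461 and 410 CPM, and in hypothalamus, at 134 and 224 against 235 and 172 CPM, it overlapped between groups. Kcne1l also rose in 6 lists, in cortex from 1.58 and 2.37 CPM to 15.4 and 10.9 CPM (log2 2.71), Kcnk1 in 5, and Kcnj8 in 4, in cortex from 4.88 and 3.56 CPM to 6.85 and 9.26 CPM (log2 0.95, edgeR adjusted p = 0.00683). Kcnj16 rose in 3 lists, cortex, hippocampus and white matter. Kcnk6 rose in 4 of the 6 lists in which it was tested and Kcnq1 in all 4 in which it was tested, cortex, hippocampus, hypothalamus and white matter. Kcnk13 fell in white matter (14.7 and 15.3 against 6.84 and 8.15 CPM, log2 -1.0) and thalamus (log2 -1.20) and rose in striatum, from 2.56 and 1.73 CPM to 5.27 and 5.22 CPM (log2 1.25, edgeR adjusted p = 0.0333).

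**Figure D4:**
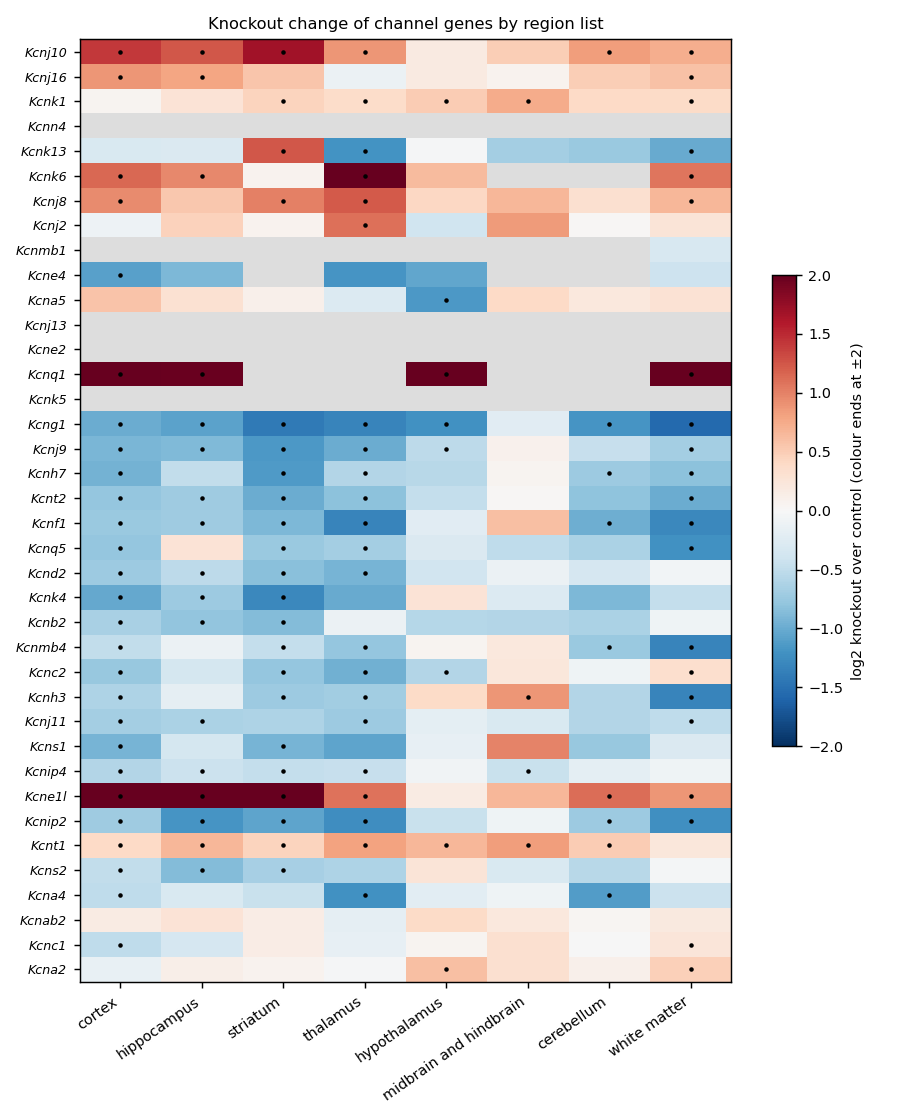
Colour gives the log2 change of knockout over control for the named channel genes (rows) within spots assigned to 8 region lists (columns), with a dot where the adjusted p was below 0.05, and grey where the gene was not tested; the colour scale ends at 2 on either side. Kcng1 is blue with a dot in 7 columns, Kcnt1 red with a dot in 7 and Kcnj10 red with a dot in 6.

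Some members changed in opposite directions between lists. Kcnv1, a modifier subunit singled out after its values were seen, fell in cortex (69.2 and 67.5 against 36.1 and 46.1 CPM, log2 -0.73), striatum and white matter, and rose in hypothalamus (13.6 and 14.0 against 23.8 and 36.4 CPM, log2 1.15) and in midbrain and hindbrain (log2 1.19). Kcnh3 fell in cortex, striatum, thalamus and white matter and rose in midbrain and hindbrain, from 11.9 and 14.0 CPM to 22.4 and 25.3 CPM (log2 0.88, edgeR adjusted p = 0.0286). Kcnc2 fell in 4 lists and rose in white matter (log2 0.33). With equal numbers of spots per list and library, each thinned to 5000 UMIs, 34 of the 41 whole-section calls were kept in the same direction and none was reversed. The genes that lost their call there included Kcne4 and Kcns2.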

How the data were processed

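For each of 4 Visium libraries the authors deposited UMI counts of every gene in every barcode, not normalised. Per the submitters' processing notes the reads were counted with Space Ranger on mm10, and the matrix headers name Cell Ranger 4 as the writing software, per the file headers. For the Space Ranger version and the annotation: not given in the sources used here. Spot positions and calls of spots over tissue were not analysed here. Gene positions and promoters came from RefSeq tables (GRCm38.p6), with 93 of 93 members placed.

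Spots with at least 1000 UMIs were summed per library and tested with edgeR 4.0.16 in R 4.3.3 (TMM, filterByExpr, quasi-likelihood test, Benjamini-Hochberg over all genes tested), with DESeq2 1.42.0 as an alternative. CPM are UMIs per 1000000 of the TMM-scaled library size. Spots with at least 5000 UMIs were used for marker-rich classes (top 10% by share of the list's UMIs, library as a block, interaction with genotype) and for region lists (highest mean z score, at least 50 spots in every library). Scripts were tested on simulated counts.

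The members, gene lists and tests were chosen with earlier results of these data known. Genes were named by rule: all glial, immune, vascular and epithelial members, the 20 other members with the smallest p at a mean of at least 5 CPM, the 4 highest members that did not pass, and up to 3 partner genes a list. A few genes that this rule picks are not reported here. Alternatives were another tool and normalisation, low-count and spot filters, thinning, mitochondrial genes, region-matched sums, cuts for classes and regions, the replicate number as a block, and leaving out each library. The only alternative added after seeing the data was a block with the replicate numbers crossed.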

Additional observations from a re-analysis of the deposited data

Results flagged for a closer look

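In 10 cases, at most 3 for each marker list, the knockout change of a named channel gene differed between marker-rich spots and the other spots, by the interaction test of edgeR, and its size is given as the log2 change in the marker-rich spots minus that in the other spots. In neuron-rich spots Kcnq5 differed by -1.20 (adjusted p = 6.01e-06), Kcnd2 by -0.75 (adjusted p = 1.43e-05) and Kcnh7 by -0.94 (adjusted p = 3.22e-05). Each of these changes was lower in the neuron-rich spots, at -1.62, -1.19 and -1.67, than in the other spots, at -0.45, -0.44 and -0.74. In oligodendrocyte-rich spots the differences ran the other way for Kcnd2 (0.87, adjusted p = 9.90e-06), Kcnc2 (0.93, adjusted p = 1.28e-05) and Kcnh7 (0.80, adjusted p = 0.00342), whose changes there were 0.25, 0.44 and -0.13. In astrocyte-rich spots Kcnc2 differed by 0.77 (adjusted p = 1.54e-07), with a change of 0.30 there and -0.46 in the other spots. In microglia-rich spots Kcnmb4 differed by 1.00 (adjusted p = 2.89e-05), Kcnf1 by 0.81 (adjusted p = 0.000328) and Kcnc1 by -0.97 (adjusted p = 1.71e-05). The spots of different classes overlap in part, and the share of list UMIs in oligodendrocyte-rich spots was 3.95% and 4.69% in the controls against 1.92% and 1.68% in the knockouts. The part of this in the differences was not tested.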

How the results depend on the processing

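Of the 41 whole-section calls, 34 were kept in the same direction with DESeq2, 20 of the 40 tested with spots thinned to 1000 UMIs (6 members higher and 17 lower), 34 of the 40 tested with region-matched sums, 37 without control 1, 38 without control 2, 29 without knockout 1 and 34 without knockout 2, and none was reversed in these settings. Leaving out 1 library gave 7 to 15 members higher and 24 to 30 lower, the fewest higher without knockout 1. With the replicate number as a block 10 were higher and 27 lower, and in cerebellum the block left 6 called. Deviations of same-numbered libraries correlated at -0.312 over 11571 genes, and a block with the numbers crossed, added after seeing the data, gave 16 higher and 30 lower (6739 genes called in all with no block, 5813 with the block and 8176 with it crossed). Leaving out 1 library moved the members called in the interaction to 13 to 25 (neuron), 3 to 8 (astrocyte), 8 to 22 (microglia) and 0 to 3 (endothelial), in marker-rich spots to 12 to 17 (microglia) and 11 to 23 (endothelial), and in region lists to 22 to 32 (thalamus), 7 to 18 (hypothalamus), 6 to 13 (midbrain and hindbrain) and 2 to 13 (cerebellum). The fewest calls came without control 1 for the neuron interaction and for midbrain and hindbrain, without control 2 for thalamus and microglia-rich spots, without knockout 1 for hypothalamus, and without knockout 2 for cerebellum, endothelial-rich spots and the microglia interaction. With the top 20% of spots 23 members passed the oligodendrocyte interaction. The causes were not tested. Log2 changes that turned sign had no call in the main or the sign-turning setting: Kcnj2 at -0.38 thinned and between -0.0572 and 0.19 with a library left out (lowest without control 1), Kcna5 at -0.45 thinned, Kcne2 at 0.069 with spots of at least 5000 UMIs and between -0.96 and 0.29 with a library left out (above 0 without control 1 and without knockout 1), Kcnk5 between -0.23 and 0.21 (above 0 without control 2 and without knockout 2), Kcnab2 between -0.045 and 0.21 (below 0 without control 1, and past the threshold by edgeR without control 2, adjusted p = 0.0494), and Kcna2 at -0.038 thinned and between -0.0586 and 0.15 (below 0 without control 1 and without knockout 1). The alternative of a score margin was not run for striatum and for midbrain and hindbrain, which had under 50 such spots in a library. At the depth of these sums 1 CPM is 48.9 to 76.9 UMIs, which limits genes such as Kcne2, Kcnn4, Kcnk5 and Kcnj13.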

Other observations

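Among channel genes outside the rule for named genes, singled out after their values were seen, Kcng4 was higher in astrocyte-rich spots by a log2 difference of 1.71, at 20.8, 16.4, 15.0 and 15.8 CPM in control 1, control 2, knockout 1 and knockout 2 against 3.30, 5.06, 7.27 and 5.12 CPM in the other spots (edgeR adjusted p = 5.96e-08). It is a modifier subunit placed in the neuronal list, and over whole sections its groups overlapped. In thalamus Kcnip1, a KChIP subunit, rose by 1.42 on the log2 scale, the largest rise there after Kcnk6 among the members that passed. In white matter Kcna1 rose from 2.63 and 4.61 CPM to 19.1 and 11.7 CPM (log2 2.02, edgeR adjusted p = 3.32e-06).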
